A study of Mus musculus with 12 samples.

Results

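Transcripts of 10 genes that mark retinal ganglion cells (RGCs) were followed in whole mouse retina and in messages bound to rod ribosomes, with and without Abca4. The genes were Thy1, Sncg, Nefl, Nefm, Nefh, Rbpms, Pou4f1, Pou4f2, Slc17a6 and Stmn2. They were chosen by gene symbol as RGC genes, and all 10 were found among the 56748 gene entries of the scaled count table and the 55372 entries of the TPM table (a transcript level scaled for transcript length and for the library's total).

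RGCs are the output neurons of the retina. They lie in the innermost cell layer, receive input from bipolar and amacrine cells, and send their axons through the optic nerve to the brain. Their long axons are packed with neurofilaments, they release glutamate, and the POU-domain factors Pou4f1 and Pou4f2 (Brn3a and Brn3b) help to specify and maintain them. Abca4 is a lipid transporter of photoreceptors with a part in the visual cycle. Thy1, Stmn2 and the neurofilament genes are also transcribed by other neurons, and in bulk tissue fewer cells of a type and less RNA per cell cannot be told apart.

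The study held 12 libraries in 4 groups of 3, all from mice 2 months of age. Control mice (RiboTag; i75-Rod-Cre) were littermates of the Abca4Ko mice (RiboTag; Abca4-/-; i75-Rod-Cre), so both genotypes carried the RiboTag allele, an HA-tagged ribosomal protein, and the Cre line, which switches the tag on in rods. The Abca4 deletion was present in every cell of the knockout, while the tag was by design in rods. For each genotype the total lysate (retina) and the RNA recovered with HA-tagged polyribosomes (rod TRAP, translating ribosome affinity purification) were sequenced after cycloheximide perfusion, which holds ribosomes on their messages. The labels number the libraries 1 to 3 and do not say whether each came from its own mouse or from a pool, so the p-values measure the spread between these libraries, which may in part be technical.

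The libraries had been scaled by the authors to a common total, 17860761 to 17862326 counts in retina and 17096515 to 17097707 in rod TRAP, so their sequencing depth is unknown. Abca4 itself was at 0.349 to 0.958% of the control mean in the 4 libraries labelled knockout 1 and 2, but at 21.3% in the retina library and 23.5% in the rod TRAP library labelled knockout 3. The Abca4 difference itself was not called with these libraries (log2 fold change −5.59 in retina and −5.79 in rod TRAP, limma adjusted p 0.41 in both) and was called without them (−7.22 and −7.63, adjusted p 3.8e-08 and 1.6e-06). They go against their label in part, and the counts of RGC members called between genotypes are given with and without them. No sample held RGCs alone, so the cell type of the 10 genes could not be checked within these data. The rod markers Gnat1, Sag and Rom1 were high in every library. The RGC genes took 0.0705 to 0.106% of the scaled counts of a retina library and 0.00192 to 0.00288% of those of a rod TRAP library.

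In control retina the members spanned from 357 ± 40.4 TPM for Thy1 to 4.23 ± 0.862 TPM for Pou4f2 (SD, n = 3, as for all values with ±). Thy1, a GPI-anchored surface glycoprotein, was at 312.4, 369.4 and 390.4 TPM in the 3 control retina libraries. Sncg, gamma-synuclein, was at 321.5, 293.0 and 355.7 TPM, and its range overlapped that of Thy1. The pair made up 34.6% and 31.3% of the summed TPM of the 10 genes.

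The axonal and cytoskeletal members followed. Nefl, the neurofilament light chain, was at 166.4, 212.3 and 134.6 TPM and overlapped neither Sncg above it nor Stmn2 below it. Stmn2, a tubulin-binding protein of growing and regenerating axons, was at 61.2, 65.1 and 52.1 TPM. Rbpms, an RNA-binding protein used as a pan-RGC marker, was at 35.8, 37.2 and 31.4 TPM. The ranges of Rbpms (34.8 ± 3.03 TPM), Nefm (31.8 ± 10.2 TPM) and Nefh (26.9 ± 4.71 TPM), the medium and heavy neurofilament chains, overlapped from each to the next.

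The transcription factors and the transporter were the lowest. Pou4f1 was at 17.8, 17.5 and 12.2 TPM, below the range of Nefh. Slc17a6, the vesicular glutamate transporter VGLUT2 that loads glutamate into RGC synaptic vesicles, was at 9.3, 9.4 and 4.7 TPM. Pou4f2 was at 4.4, 5.0 and 3.3 TPM, and its range overlapped that of Slc17a6 but not that of Pou4f1.

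Promoter sequence from RefSeq (build GRCm38.p6, which is not the build of the deposited tables) was at hand for 4 of the 10 genes, with 2 entries for Slc17a6. The promoters of both Pou4f factors and of Sncg are shown because these genes lie near opposite ends of the order above. Sncg had rank 2, Pou4f1 rank 8 and Pou4f2 rank 10. All 10 genes were low in rod TRAP, and a link between promoter letters and transcript level was not tested. Each runs 5′ to 3′ on the gene's strand, from 250 bases before the start of transcription to 50 after it. Capitals mark the GC box letters GGGCGG or their reverse complement.

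Pou4f1: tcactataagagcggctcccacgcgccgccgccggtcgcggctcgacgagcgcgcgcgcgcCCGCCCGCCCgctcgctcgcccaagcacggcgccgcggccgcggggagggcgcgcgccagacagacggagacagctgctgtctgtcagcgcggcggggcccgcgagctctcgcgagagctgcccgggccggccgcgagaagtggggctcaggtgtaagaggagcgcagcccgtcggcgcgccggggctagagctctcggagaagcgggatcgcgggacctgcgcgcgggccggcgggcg
Pou4f2: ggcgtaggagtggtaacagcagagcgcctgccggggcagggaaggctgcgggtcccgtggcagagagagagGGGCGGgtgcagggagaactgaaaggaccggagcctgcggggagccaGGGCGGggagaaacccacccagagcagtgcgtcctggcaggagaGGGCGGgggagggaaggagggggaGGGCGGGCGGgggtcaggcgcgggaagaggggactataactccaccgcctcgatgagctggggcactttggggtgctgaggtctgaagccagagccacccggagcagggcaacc
Sncg: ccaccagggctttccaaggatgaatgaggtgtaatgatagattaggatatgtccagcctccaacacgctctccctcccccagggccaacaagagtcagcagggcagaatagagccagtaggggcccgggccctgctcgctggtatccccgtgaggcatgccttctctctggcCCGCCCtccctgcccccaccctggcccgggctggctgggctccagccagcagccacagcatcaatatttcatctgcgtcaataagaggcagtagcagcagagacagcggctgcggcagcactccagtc

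The Pou4f1 window (chr14:104467950-104468249, minus strand) held 2 overlapping matches and was 78.3% G or C. The Pou4f2 window (chr8:78436598-78436897, minus strand) held 5 matches, 2 of them overlapping, and was 69.7% G or C. The Sncg window (chr14:34374620-34374919, minus strand) held 1 match and was 61.3% G or C. For comparison, 35.7% of 32851 promoter windows of this length held the GC box letters on either strand, and their median G or C content was 52.7%. The upstream Slc17a6 window (chr7:51621580-51621879, plus strand) held 1 match and was 53.7% G or C. The downstream one (chr7:51624387-51624686, plus strand) held none and was 43.0% G or C. The letters TATAAA and CCAAT, searched on both strands, were in none of the 5 windows, and are in 13.6% and 37.4% of all windows.

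**Figure D1:**
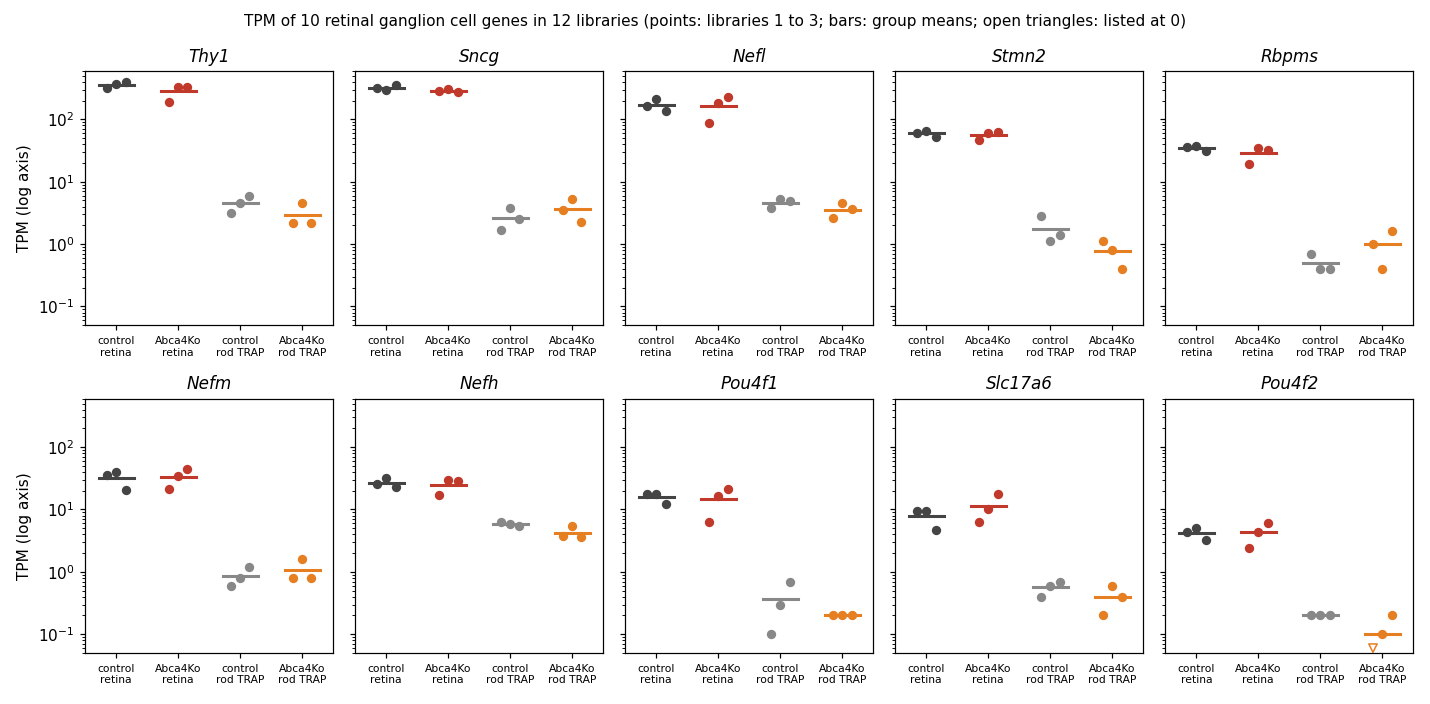
TPM (vertical log axis) of each gene in each of the 12 libraries, grouped along the horizontal axis by genotype and fraction; points are libraries, bars are group means and the open triangle is a library listed at 0. For each of the 10 genes all 6 rod TRAP libraries sit below all 6 retina libraries, and Nefh, at 3.6 to 6.4 TPM in rod TRAP, lies closest to its retina level.

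The first comparison asked how much of each RGC message was recovered with rod ribosomes. All 10 genes were lower in rod TRAP than in retina in control mice, by limma on log2(CPM + 0.5), CPM being counts scaled to the library total, with Benjamini-Hochberg adjustment over all genes tested (adjusted p from 2.5e-10 to 2.1e-07). Of all 16286 genes tested, 39.3% were called lower, and 41.1% had all 3 rod TRAP libraries below all 3 retina libraries, as the 10 members had. All 10 were also lower in Abca4Ko mice (adjusted p from 2.6e-08 to 3.4e-06), where 34.3% of 16036 genes were called lower and 36.4% had no overlap in that direction. In both genotypes Pou4f2 passed the filter for low counts only through its retina libraries. Its lower calls and its lack of overlap therefore add no support. Without either Abca4Ko library numbered 3, every member tested was still called lower. The median log2 fold change of the 10 genes was −4.42 in control and −4.30 in Abca4Ko mice, beside −0.05 and −0.02 over all genes. With the authors' scaling alone, the median of all genes moved to −0.62 and −0.49 and all 10 calls stood.

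Thy1 was at 3.1, 4.6 and 6.0 TPM in control rod TRAP and at 2.2, 4.5 and 2.2 TPM in Abca4Ko rod TRAP. It was 64-fold lower than in retina in control mice (log2 fold change −6.00, SE 0.16, adjusted p 2.5e-10). Sncg was at 1.7, 3.8 and 2.5 TPM in control and at 3.5, 5.3 and 2.3 TPM in Abca4Ko rod TRAP. Its log2 fold change was −6.12 in control (SE 0.21) and −5.66 in Abca4Ko mice (SE 0.26). These were the members with the highest retina levels, and rod TRAP kept 1.28% of the retina TPM of Thy1 and 0.825% of that of Sncg in control mice.

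Stmn2 was at 2.8, 1.1 and 1.4 TPM in control rod TRAP and at 1.1, 0.8 and 0.4 TPM in Abca4Ko rod TRAP, and was 32.5-fold lower than in control retina (log2 fold change −5.02, SE 0.20). Rbpms was at 0.7, 0.4 and 0.4 TPM and at 1.0, 0.4 and 1.6 TPM, with log2 fold changes of −4.35 (SE 0.22) in control and −4.10 (SE 0.24) in Abca4Ko mice. The rod TRAP levels of these genes rested on few reads, and the TPM and scaled count tables did not rank the libraries alike: control rod TRAP 1 had the highest Stmn2 TPM and the lowest Stmn2 scaled count (11) of its group.

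Pou4f1 was at 0.1, 0.3 and 0.7 TPM in control rod TRAP and at 0.2 TPM in each Abca4Ko rod TRAP library. Pou4f2 was at 0.2 TPM in each control rod TRAP library and at 0, 0.1 and 0.2 TPM in Abca4Ko rod TRAP, from scaled counts of 0, 3 and 7. Slc17a6 was at 0.4, 0.6 and 0.7 TPM in control and at 0.2, 0.6 and 0.4 TPM in Abca4Ko rod TRAP. The fold changes of these low genes are understated by the 0.5 CPM added before the log, and were −4.11, −2.96 and −3.03 in control and −4.09, −3.43 and −4.01 in Abca4Ko mice on the log2 scale.

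**Figure D2:**
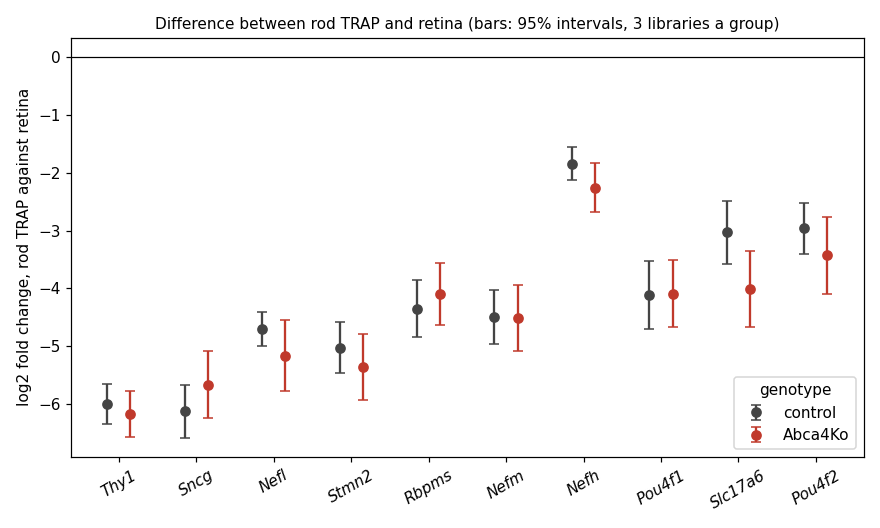
Log2 fold change between rod TRAP and retina (vertical axis) for each gene, in control and Abca4Ko mice; points are limma estimates and bars their 95% intervals, with 3 libraries a group. All 20 intervals lie below 0, and the estimates run from −6.17 for Thy1 in Abca4Ko mice to −1.85 for Nefh in control mice.

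The neurofilament chains parted from each other. In control rod TRAP Nefl was at 3.8, 5.2 and 4.9 TPM and Nefm at 0.6, 0.8 and 1.2 TPM, 2.71% and 2.73% of their retina means. Nefh was at 6.4, 5.8 and 5.5 TPM, 21.9% of its retina mean. In Abca4Ko rod TRAP the values were 2.6, 4.5 and 3.6 TPM for Nefl, 0.8, 1.6 and 0.8 TPM for Nefm, and 3.8, 5.4 and 3.6 TPM for Nefh, or 2.15%, 3.23% and 17% of retina. The log2 fold change of Nefh was −1.85 (SE 0.13) in control and −2.26 (SE 0.19) in Abca4Ko mice, the closest to 0 of any member in both. Those of Nefl were −4.70 and −5.16, and those of Nefm −4.49 and −4.50.

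The TPM ratio of Nefh to Nefl was 0.16 ± 0.022 over the 6 retina libraries (SD) and 1.26 ± 0.257 over the 6 rod TRAP libraries. The ratio was higher in rod TRAP in 6 of 6 retina and rod TRAP pairs of the same genotype and number (two-sided exact sign-flip permutation test, p = 0.0313, the smallest 6 pairs allow, adjusted p = 0.0469 over 3 ratios). The ratio of Nefh to Nefm was 0.833 ± 0.170 in retina and 5.85 ± 2.68 in rod TRAP, again higher in 6 of 6 pairs (exact p = 0.0313, adjusted p = 0.0469). The ratio of Nefm to Nefl was 0.195 ± 0.0297 and 0.240 ± 0.0805, higher in 4 of 6 pairs (exact p = 0.344). These ratios were chosen after the values of the genes had been seen. The adjustment over 3 ratios does not cover that choice, so the p-values add no support beyond the values themselves.

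Over the 10 genes the median share of the retina TPM kept in rod TRAP was 2.72% in control and 2.24% in Abca4Ko mice. Beside Nefh, Slc17a6 kept 7.26% and 3.56%, Pou4f2 4.72% and 2.33%, and Stmn2 2.97% and 1.36%. Rbpms was the member whose share was higher in Abca4Ko than in control mice by the widest margin, 3.51% against 1.44%, and its 3 same-numbered shares in Abca4Ko mice ran from 1.17 to 5.24%. On CPM the Rbpms shares were 4.47% and 3.48%, a smaller gap. No test was made of the shares.

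Other genes of RGCs and axons were read from lists of the same kind. Of 12 RGC transcription factors, 11 were called lower in control rod TRAP (Isl1, Ebf3, Isl2 and Pou4f3 are the most abundant) and 1, Klf7, was not called. In Abca4Ko mice all 10 of these factors tested were called lower, Klf7 included (log2 fold change −0.85, limma adjusted p 0.023). Only 2 of the 12, Isl1 and Klf7, had enough rod TRAP counts to compare genotypes. The others passed the filter through retina, where they were high, so their lower calls add no support. Of 12 genes of RGC subtypes or enriched in RGCs, 9 had enough rod TRAP counts to compare genotypes, and the same limit holds for the rest. In this list 11 were called lower in control rod TRAP, among them Cartpt (log2 fold change −5.77), Chrna6 (−5.44) and Nrn1 (−4.64). The exception was Jam2, a junctional adhesion molecule that marks a direction-selective RGC type, which was higher in control rod TRAP, with 105.3, 100.7 and 100.5 TPM against 33.2, 39.1 and 30 TPM in retina (log2 fold change 1.99, adjusted p 5.3e-08).

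Of 11 genes of the axonal cytoskeleton, 10 were called lower in control rod TRAP, including Uchl1 (−5.14), Stmn1 (−4.25), Stmn3 (−3.57) and Tubb3 (−1.68). Map1b, a microtubule-associated protein, was called higher (2.08, adjusted p 1.4e-07), and is named here after its values were seen. Among 11 paralogs of the members, 10 were called lower. Enough rod TRAP counts to compare genotypes were there for 9 of the 11 axonal genes and 6 of the 11 paralogs. The rest passed the filter through retina, so their lower calls add no support. Sncb, beta-synuclein, kept 37.0% of its retina TPM in control rod TRAP. Slc17a7, VGLUT1, the transporter that photoreceptors use, was at 3070.4, 2816.1 and 3321.2 TPM in control rod TRAP against 2905.9, 2692.5 and 3072.7 TPM in retina. Its call (log2 fold change 0.36, adjusted p 0.027) was kept in 5 of 15 alternatives. It turned to −0.26 under the authors' scaling alone, and its log2 fold change was 0.03 without control retina 2. In Abca4Ko mice Slc17a7 was called higher in rod TRAP (log2 fold change 0.70, limma adjusted p 0.013), a call kept in 10 of 15 alternatives.

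The markers of other cells gave the measure of how RGC messages compared with those of other non-rod cells. The median share kept in control rod TRAP was 4.03% for 9 amacrine markers (Calb2, Slc6a9, Pax6, Gad1 and others), 1.84% for 8 bipolar markers (Pcp2, Prkca, Cabp5 and others), 3.18% for 8 Müller glia markers (Apoe, Glul, Rlbp1, Vim and others) and 3.13% for the 3 astrocyte markers above 1 TPM (Gfap, S100b, Aldh1l1). It was 24.4% for 8 cone markers and 201% for 10 rod markers. The 2.72% of the RGC genes lay within the span of the inner retinal and glial lists. Prkca is also the 1 bipolar marker that was higher in rod TRAP.

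**Figure D3:**
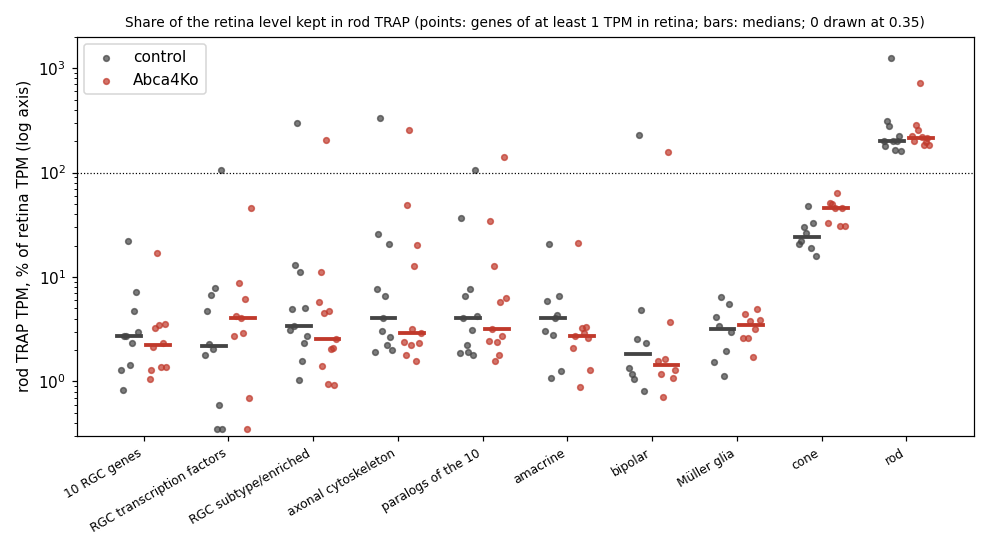
Mean rod TRAP TPM as a percentage of mean retina TPM (vertical log axis) for the genes of each list with at least 1 TPM in retina, in control and Abca4Ko mice; points are genes and bars are list medians. The RGC genes have medians of 2.72% and 2.24%, near the amacrine, bipolar and Müller glia lists and below the cone (24.4% and 45.6%) and rod (201% and 215%) lists.

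Oligodendrocytes wrap RGC axons only behind the eye, so their genes report on optic nerve tissue in the sample. Of 7 such markers, Mog, Mobp and Olig2 were listed at 0 in all retina libraries of the TPM table, which has 1 decimal. In the scaled count table Mobp and Olig2 were also at 0, and Mog had 4, 3 and 2 counts in control and 1, 0 and 3 in Abca4Ko retina. Mbp was at 11.5, 18.3 and 13.5 TPM in control retina and was the only one above 1 TPM in the group mean of both genotypes, and its transcripts were also present in control rod TRAP at 8.7, 8.6 and 7.3 TPM. The summed TPM of the 4 astrocyte markers, cells that follow RGC axons in the nerve fibre layer, was 52.2 to 63.4 in control and 45.3 to 58.5 in Abca4Ko retina.

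The second comparison asked whether RGC genes differed between Abca4Ko and control retina. None of the 10 was called (adjusted p from 0.44 to 0.97), where 0.112% of 16964 genes were called and 11.9% had an unadjusted p under 0.05. None of the 10 was among the latter. By the fit, 8 of 10 were below 0 with a median log2 fold change of −0.09, beside −0.01 and 51.3% below 0 over all genes.

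Thy1 was at 190.4, 329.1 and 324.5 TPM in Abca4Ko retina against 312.4, 369.4 and 390.4 TPM in control. It was the only member with no overlap between the genotypes on the fitted scale (19.7% of all genes had none), with a log2 fold change of −0.33 (95% interval −0.72 to 0.06, adjusted p 0.44). On the TPM scale the ranges overlapped. Sncg was at 282.3, 301.3 and 271.1 TPM against 321.5, 293.0 and 355.7 TPM (log2 fold change −0.16, interval −0.61 to 0.29).

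The neurofilament chains overlapped between genotypes. Nefl was at 88.0, 180.5 and 229.0 TPM in Abca4Ko retina (log2 fold change −0.08, interval −0.62 to 0.45), Nefm at 21.1, 33.8 and 44.1 TPM (0.09, interval −0.43 to 0.60) and Nefh at 16.9, 29.5 and 29.0 TPM (−0.10, interval −0.46 to 0.26). Stmn2, at 46.0, 60.4 and 62.3 TPM, had the narrowest interval of the 10, from −0.35 to 0.30 around −0.03. Rbpms, whose transcripts mark nearly all RGCs, was at 19.1, 34.2 and 32.2 TPM, a log2 fold change of −0.19 (interval −0.58 to 0.21).

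Pou4f1 was at 6.3, 16.4 and 21.2 TPM in Abca4Ko retina (log2 fold change −0.10) and Pou4f2 at 2.4, 4.4 and 6.1 TPM (−0.03). Slc17a6 was at 6.2, 10.1 and 17.4 TPM, from the lowest but one to the highest of the 6 retina libraries. Its log2 fold change was the furthest above 0, 0.50 (interval −0.18 to 1.18, adjusted p 0.49). The intervals were −0.62 to 0.42 for Pou4f1 and −0.56 to 0.51 for Pou4f2.

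**Figure D4:**
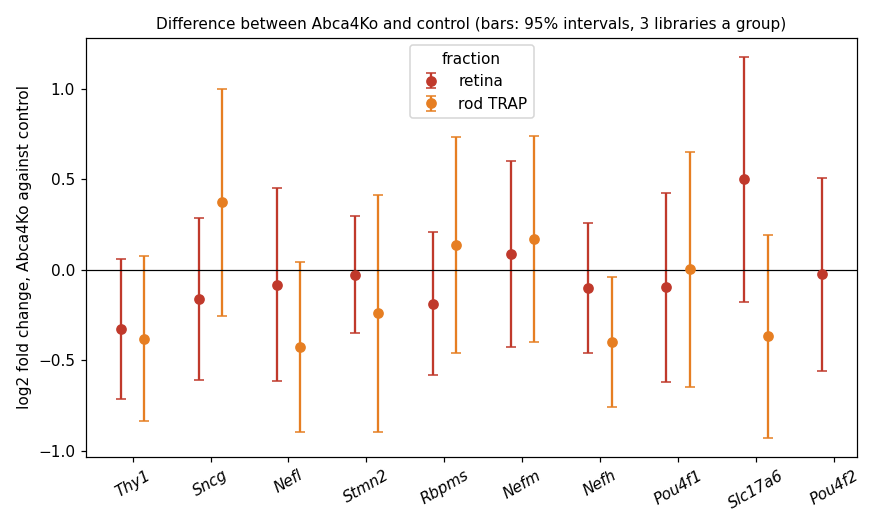
Log2 fold change between Abca4Ko and control (vertical axis) for each gene in retina and in rod TRAP; points are limma estimates and bars 95% intervals, with 3 libraries a group, and Pou4f2 had too few counts to be tested in rod TRAP. Of the 19 intervals, that of Nefh in rod TRAP (−0.76 to −0.04) lies wholly below 0, and its adjusted p was 0.42.

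Single retina libraries moved many members at once. Abca4Ko retina 1 had the lowest TPM of the 6 libraries for 7 of 10 members, and lay below the median of the other 5 for all 10, at 36.0% for Pou4f1, 48.8% for Nefl, 57.9% for Thy1 and 93.7% for Sncg. After scaling over the 12 libraries by the trimmed mean of M values it lay below for 8 of 10, at a median of 77.4% against 58.1% on the TPM scale. The amacrine, bipolar and Müller glia markers were low in the same library (medians of 56.8%, 37.7% and 62.2% of the other 5). The 8 cone markers were low there too (median 69.4%), and the 10 rod markers were all above (median 119.9%). In control retina 1 the amacrine, bipolar and Müller glia markers were also low, with medians of 77.9%, 63.1% and 57.8%. The median of the 10 members in that control library was 100.7%. The part of these markers in the RGC values was not tested. Without Abca4Ko retina 1, 4 of 10 members were below 0 between genotypes and none was called.

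Control retina 3 split the members. It had the highest TPM of the 6 libraries for Thy1 and Sncg and the lowest for Nefm and Slc17a6, which were at 57.3% and 50% of the median of the other 5. Abca4Ko retina 3 went the other way, with the lowest Sncg and the highest Nefl, Nefm, Pou4f1, Pou4f2 and Slc17a6. The longest annotated transcripts of Sncg and Thy1 have 852 and 1735 bases and are the shortest of the 10, and those of the other genes named here have 3204 to 4445 bases.

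Deviations also followed transcript length over all genes. Over 10316 genes, the deviation of control retina 3 from the median of the other 5 libraries had a Spearman correlation of −0.43 with transcript length, and that of Abca4Ko retina 3 one of 0.50. Control retina 2 had one of 0.41, but its members did not follow the order of length, with Sncg at 97.2%, Thy1 at 113.8%, Slc17a6 at 101.1% and Pou4f1 at 106.7% of the other 5. The other 3 retina libraries lay between −0.25 and 0.05. The genes share each library, so these are descriptions and carry no p-value. In rod TRAP the library with the strongest correlation was Abca4Ko 1, at −0.47 over 9007 genes. The part of transcript length in the RGC values was not tested. Without control retina 3, 9 of 10 members were below 0 between genotypes, and without Abca4Ko retina 3, the library that retained Abca4 reads, 8 of 10. None was called in either case.

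**Figure D5:**
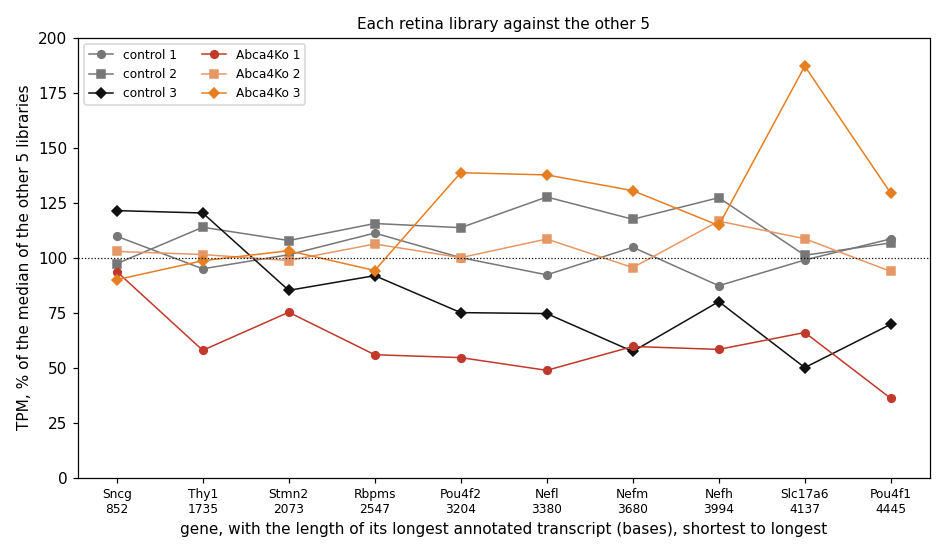
TPM of each retina library as a percentage of the median of the other 5 (vertical axis) for the 10 genes, ordered along the horizontal axis by the length of their longest annotated transcript; each line is a library. Abca4Ko 1 lies below 100% throughout, control 3 runs from 121% at Sncg to 50% at Slc17a6, and Abca4Ko 3 from 90% at Sncg to 187% at Slc17a6.

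In rod TRAP, 9 of the 10 genes had enough counts to compare genotypes and none was called (adjusted p from 0.42 to 1.0), where 1.12% of 13104 genes were called. Without Abca4Ko rod TRAP 3 none was called either. Of the 9, 1 had an unadjusted p under 0.05, where 10.4% of all genes had. This was Nefh, with scaled counts of 151, 196 and 126 in Abca4Ko and 228, 206 and 194 in control. It was the only member with no overlap (17.5% of all genes had none), and its log2 fold change was −0.40 (SE 0.16, unadjusted p 0.032, adjusted p 0.42). Nefl was at −0.43, Thy1 at −0.38, Slc17a6 at −0.37 and Stmn2 at −0.24, while Sncg was at 0.37, Nefm at 0.17, Rbpms at 0.14 and Pou4f1 at 0.00, each with an interval that held 0.

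Among the other RGC genes, 2 of 9 tested from the subtype list were called lower in Abca4Ko rod TRAP and 0 higher (0.397% of all genes were called lower). Nell2, a secreted glycoprotein that guides axons, was at 0.8, 1.8 and 1.3 TPM against 4.4, 3.8 and 3.7 TPM in control (log2 fold change −1.33, adjusted p 0.016). Kcng4, a modifier subunit of potassium channels that marks alpha RGCs, was at 0.3, 0.6 and 0.6 TPM against 3.3, 1.7 and 1.1 TPM (log2 fold change −1.51, adjusted p 0.043). For both genes the groups did not overlap, and control rod TRAP kept 11.2% and 13% of their retina TPM against 4.72% and 4.55% in Abca4Ko. In retina neither was called (−0.38 and −0.62, adjusted p 0.44 and 0.42), and the difference of the differences was not called either (adjusted p 0.41 and 0.45).

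Both calls rested on few libraries. That of Nell2 was lost when control rod TRAP 1, 2 or 3 was left out (adjusted p 0.093 to 0.12), on log2(TPM + 1) (adjusted p 0.10) and without trended moderation (adjusted p 0.056). That of Kcng4 was lost without control rod TRAP 1, 2 or 3 and without Abca4Ko rod TRAP 2 or 3 (adjusted p 0.054 to 0.24), and under 5 other settings (adjusted p 0.059 to 0.34). In every setting run both genes stayed lower in Abca4Ko. Of the 8 cone markers, all 8 were above 0 in the same comparison, 7 had an unadjusted p under 0.05 and 1, Gngt2, was called (log2 fold change 0.69, adjusted p 0.022), lost without control rod TRAP 1, 2 or 3 or Abca4Ko 2 (adjusted p 0.0767 to 0.144), and under 2 other settings. The part of these values in the RGC results was not tested. The 7 bipolar and 7 amacrine markers tested held no call.

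The last comparison asked whether the genotype difference itself differed between rod TRAP and retina. None of the 10 members was called, where 0.00579% of 17273 genes were called, and 1 had an unadjusted p under 0.05 (11.3% of all genes had). This was Slc17a6, at −0.89 on the log2 scale (SE 0.42, unadjusted p 0.0499, adjusted p 0.44), which is the 0.50 in retina set against −0.37 in rod TRAP. Sncg was at 0.55 (interval −0.22 to 1.33) and Nefl at −0.36 (interval −1.07 to 0.36). With both Abca4Ko libraries numbered 3 left out, or both numbered 1, none of the 10 was called.

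Genes known to rise in RGCs after axon injury were read from a further list of 10. Sox11, Sprr1a and Ecel1 were at 0 to 0.4 TPM in every library and Gal at 1.0 to 3.1 TPM in retina. Ddit3, Gadd45a, Jun and Atf3, which other cells also transcribe under stress, were its 4 highest genes in mean TPM. Of 8 genes tested between genotypes in retina and 5 in rod TRAP, none was called (smallest adjusted p 0.43 and 0.62). Atf3 was at 14.8, 13.7 and 9.5 TPM in Abca4Ko and 13.3, 11.3 and 12.3 TPM in control retina, a log2 fold change of 0.22. It was called higher in rod TRAP than in retina in both genotypes (0.96 and 0.85, adjusted p 0.00022 and 0.014). Of 7 genes of the list tested between fractions, 2 were called higher, 2 lower and 3 were not called in each genotype. Of all genes tested, 36.1% were called higher in rod TRAP in control and 29.5% in Abca4Ko mice, so the counts of the injury list lie near the background.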

How the data were processed

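Retina and rod TRAP RNA was converted with the SMARTer Ultra Low Input kit (5 ng of lysate RNA, 10 ng of TRAP RNA) and made into KAPA Hyper Prep libraries. The submitters' processing notes name CASAVA 1.8.2, HISAT2, DESeq2, edgeR and build GRCm39, with no role or order. The counting step and annotation are not given in the sources used here. The deposited gene values were a table of scores, counts that the authors had scaled to a common total within each fraction and rounded, and a table of deposited TPM values with 1 decimal. All 12 libraries were used and 0 columns were left unmapped.

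Scaled counts are not raw counts, so no count model was fitted. Genes with at least 10 scaled counts in at least 3 libraries of a comparison were scaled by the trimmed mean of M values, put as log2(CPM + 0.5) and tested with limma 3.58.1 (trend and robust, R 4.3.3). A fold change on this scale understates the change of low genes. A gene was called at a Benjamini-Hochberg adjusted p under 0.05 over all genes tested. The scripts were tested on simulated data with known changes. Ratios and shares were taken from TPM with Python 3.11.15. Transcript length is the longest spliced transcript of a symbol in GENCODE M21, matched for 97.0% of retina and 97.3% of rod TRAP genes of at least 5 TPM.

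Same-numbered libraries of the 2 fractions of a genotype deviated together (Pearson correlation 0.160 to 0.434 in 6 of 6 pairs over 17273 genes). Differently numbered libraries of a genotype ran from −0.457 to 0.229. The highest of these, Abca4Ko retina 3 with rod TRAP 2, lay above the 0.207 of the pair numbered 2 in Abca4Ko. The numbers were taken to pair retina with rod TRAP, which the labels do not state. Replicate block, scaling, pseudocount, filter, TPM, moderation, joint fit and leave-one-out alternatives were run. The 10 members, the other gene lists and the tests were chosen with earlier results of these data known. Some items are not reported here. Genes named from each list are its 4 highest in mean TPM and any called between genotypes. Klf7, Map1b, Mog, Mobp, Olig2, Sox11, Sprr1a, Ecel1 and Gal were named after their values were seen.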

Additional observations from a re-analysis of the deposited data

How the results depend on the processing

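The counts of members called (10 and 10 lower in rod TRAP, 0 between genotypes in retina, rod TRAP and the interaction) were the same under every alternative, except that 9 of 9 were called between fractions when a retina library was left out, since Pou4f2 then had too few counts. With the replicate block the counts of members called were also 10, 10, 0, 0 and 0. The numbers did not pair the genotypes (correlation −0.394 to 0.012), where the block gave 33 called genes in retina in place of 19 and took Kcng4 to an adjusted p of 0.073. Over all genes, calls ranged from 1 (without Abca4Ko retina 1) to 63 (all 12 libraries in one fit) in retina, from 28 (without control rod TRAP 2) to 598 (without Abca4Ko rod TRAP 1) around 147 in rod TRAP, from 1 to 3 (on log2(TPM + 1)) for the interaction, and from 6111 (without Abca4Ko retina 2) to 11930 around 10230 between fractions in Abca4Ko mice. The authors' scaling alone moved the share of fraction calls that were lower in control mice from 52.1% to 73.7%, and in Abca4Ko mice from 53.8% to 77.4%. The median share kept in Abca4Ko rod TRAP, 2.24%, became 3.33% on CPM and ranged from 1.82 to 2.97% with a library left out, and that in control, 2.72%, from 2.38 to 3.10%.

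Uncalled log2 differences near 0 changed sign with a library left out. In retina these ranged from −0.28 to 0.19 (Nefl), −0.15 to 0.23 (Nefm), −0.20 to 0.0037 (Nefh), −0.26 to 0.12 (Pou4f1), −0.20 to 0.15 (Pou4f2) and −0.065 to 0.020 (Stmn2). In rod TRAP they ranged from −0.10 to 0.34 (Nefm), −0.044 to 0.37 (Rbpms), −0.30 to 0.094 (Pou4f1) and −0.49 to 0.014 (Stmn2). For the interaction they ranged from −0.22 to 0.033 (Thy1), −0.20 to 0.32 (Nefm), −0.27 to 0.25 (Pou4f1) and −0.52 to 0.033 (Stmn2). Pou4f1 in rod TRAP was at −0.0068 under the authors' scaling, −0.010 with a pseudocount of 2 and −0.011 in the fit of all 12 libraries. The Thy1 interaction was at 0.051 with a pseudocount of 2 and 0.027 without both Abca4Ko libraries numbered 3, and that of Pou4f1 at −0.28 without both numbered 1 (both settings chosen after seeing the data). Slc17a7 between fractions in control mice turned to −0.26 under the authors' scaling. Abca4 between fractions in the knockout ranged from −0.94 to 2.35 and its interaction from −2.08 to 1.38. The cause was not tested.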
